A study of Mus musculus with 23 samples.

Results

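The genes described here are 30 genes of cholesterol and fatty acid synthesis: the SREBP regulators, the enzymes from acetyl-CoA to cholesterol, a sterol carrier and the main enzymes of fatty acid synthesis and desaturation. Each was represented by the probe set that named only that gene, and by the one of highest mean over all arrays where there were several. By this rule 29 of the 30 were measured, among 18704 genes in all, and Acat2 was not analysed here. They comprised 3 regulators, 6 mevalonate pathway enzymes, 11 enzymes from squalene synthesis to cholesterol, 1 carrier and 8 fatty acid enzymes.

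Hypothalami came from male db/db mice, whose leptin receptor does not signal and which grow obese with diabetes. All mice, vehicle groups included, carried db/db, were given as 8 weeks old, had eaten normal chow for 2 weeks and were injected intraperitoneally with DMSO, 25 µl per day. The celastrol groups also received celastrol, a pentacyclic compound of thunder god vine, at 250 µg/kg for the 6-h group. The sources used here state no dose for the later times. The groups were celastrol at 6 h (n = 3) and vehicle at 6 h (n = 4), celastrol at 1 day and vehicle at 1 day (n = 4 each), and celastrol at 4 days and vehicle at 4 days (n = 4 each), 1 array per sample. Arrays within a group are labelled as biological replicates, without word on whether animals were pooled, so the p-values measure the spread between these samples. Because whole tissue was measured, fewer cells of a type and less RNA per cell cannot be told apart.

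Cells make cholesterol from acetyl-CoA through mevalonate, squalene and lanosterol, and the transcription factor SREBP-2 drives the genes of this route when membrane sterol is low. INSIG proteins hold the SREBP precursors in the endoplasmic reticulum when sterol is plentiful, while SREBP-1 acts mainly on the genes that make fatty acids. The brain makes its own cholesterol, since lipoproteins do not cross the blood-brain barrier, and myelin holds a large share of it. Oligodendrocytes and astrocytes are therefore main sites of sterol and fatty acid synthesis in this tissue.

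The arrays had median log2 values of 8.57 to 8.64, and all 13 hypothalamic marker genes, Hcrt, Pmch, Trh, Avp and Oxt among them, were measured, with a mean level of 10.76 to 11.02 per array. The 29 genes had a mean level of 10.52 to 10.66 per array, above the array medians. Shares and medians over all genes are therefore not matched to the 29 for level. Pituitary markers (7 of 9 measured, Prl and Gh among them) varied from 7.11 to 9.48 in mean level between arrays, within groups as well as between them. The spread of values within an array was narrower in some groups: its SD over genes was 1.87 to 1.92 with celastrol and 1.92 to 1.94 with vehicle at 6 h, 1.91 to 1.93 with celastrol and 1.93 to 1.96 with vehicle at 1 day, and 1.88 to 1.94 with celastrol and 1.89 to 1.91 with vehicle at 4 days. Oligodendrocyte markers (17 of 18 measured) had a mean level of 10.49 to 10.55 per array with celastrol at 1 day, against 10.55 to 10.67 with vehicle. The 95% confidence interval of a celastrol difference extended by 0.146 log2 units each way for the median gene at 6 h, and by 0.136 at 1 day and 4 days.

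Replicate 3 of the 6-h vehicle group stood apart from the other 3 arrays of its group, in these genes and over all probe sets. Over all probe sets its highest correlation with an array of its group was 0.9941, against 0.9972 to 0.9978 for the other 3. All 8 fatty acid enzymes were lower in it than in every other array of the group, with differences from their mean of -0.088 to -0.38, Fasn, fatty acid synthase, being the farthest. Of the 17 enzymes from mevalonate to cholesterol, 10 were higher in it than in all the others and 1 lower. Idi1, isopentenyl diphosphate isomerase, stood at 10.06 in this array and at 9.52, 9.46 and 9.50 in the others, and Stard4, a sterol carrier, at 8.97 against 8.46, 8.60 and 8.47. Srebf2 and Srebf1 were lower in it and Insig1 higher. Over all genes, 29.7% were above and 38.3% below the other 3 arrays. Microglia markers were higher in it (6 of 8 above the other arrays, median difference 0.20) as were oligodendrocyte markers (10 of 17 above, 0.059), and thalamus markers were lower (7 of 9 below, -0.29). The part of these cells in the difference was not tested. Values at 6 h that this array moves by over 1.5 times are given without it too where they are described.

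**Figure D1:**
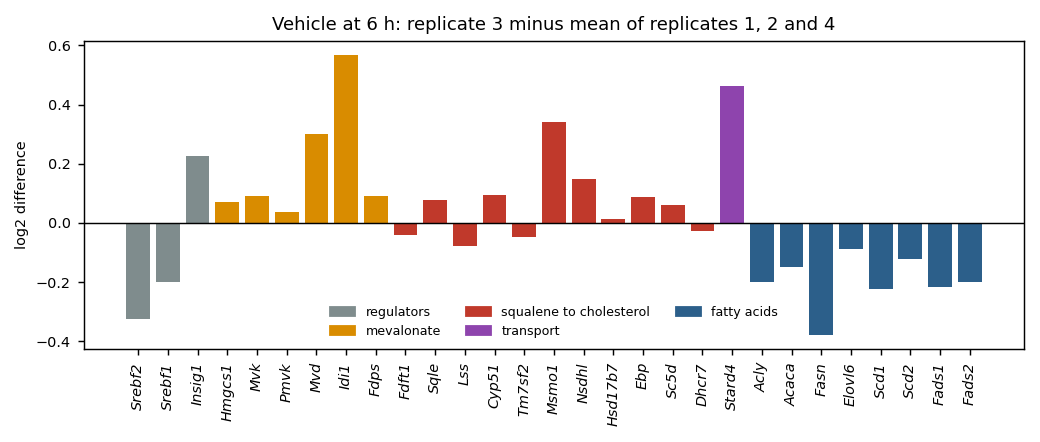
Bars show, for each of the 29 measured genes (x axis, coloured by role), the log2 expression of vehicle replicate 3 at 6 h minus the mean of replicates 1, 2 and 4 (y axis). All 8 fatty acid enzymes lie below 0, while Idi1 (0.57), Stard4 (0.46) and Msmo1 (0.34) lie highest.

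Celastrol was first set against vehicle at each time, to ask whether the drug changed lipid synthesis genes in mice without leptin signalling. At 6 h, 0 of the 29 genes passed an adjusted p of 0.05 in limma, as did 0% of all genes, and 3 had an unadjusted p under 0.05, beside 14.8% of all genes. The 3 were Ebp and Sc5d, enzymes of late sterol synthesis, which were lower, and Fads1, a fatty acid desaturase, which was higher. The sterol enzymes were lower in 9 of 11 cases, with a median log2 difference of -0.070, and the fatty acid enzymes higher in 6 of 8, with a median of 0.053. Over all 29 genes 16 were lower and the median was -0.030, beside 47.2% lower and a median of 0.0072 over all genes. Without vehicle replicate 3 the fatty acid median was 0.0064, with 5 of 8 higher, and the median of all 29 was -0.015. The median of the 17 enzymes from mevalonate to cholesterol was then -0.034, against -0.069 with that array, and the genes at an unadjusted p under 0.05 were Ebp and Mvd. Stard4 differed by -0.09 with and 0.026 without it, Insig1 by -0.10 and -0.042, and Srebf2 by 0.088 and 0.0067.

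The direction of the median at 6 h turned under several settings. The median of all 29 was 0.0046 after quantile normalisation, with 16 higher, 0.032 with each array's SD over genes as a covariate, with 21 higher, and 0.0049 with all vehicle arrays as the control. With the SD covariate the 17 sterol route enzymes had a median of 0.019. Without celastrol replicate 1 the median of all 29 was 0.023, and with the oligodendrocyte mean as a covariate -0.0037. Oligodendrocyte markers were lower with celastrol in 14 of 17 cases at 6 h (median -0.037) and endothelial markers in 7 of 8 (median -0.075), and the part of these cells was not tested.

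At 1 day, 27 of the 29 genes were lower with celastrol, beside 45.9% of all genes, but 0 of the 29 passed the adjusted threshold, beside 0.016% of all genes (3 genes, all higher). The median log2 difference was -0.063, against 0.0086 over all genes, which are not matched to the 29 for level. All 3 regulators, all 11 enzymes from squalene to cholesterol (median -0.085), Stard4 and all 8 fatty acid enzymes (median -0.052) were on the lower side. Among the mevalonate enzymes, Mvk, mevalonate kinase, and Fdps, farnesyl diphosphate synthase, were the 2 higher ones, at 0.033 and 0.032. An unadjusted p under 0.05 was reached by 7 genes, all lower (Ebp, Hsd17b7, Lss, Idi1, Insig1, Hmgcs1 and Fdft1), beside 12.5% of all genes. For 7 genes (Hmgcs1, Lss, Stard4, Acaca, Scd1, Scd2 and Fads2) every celastrol array lay below every vehicle array, as for 4.56% of all genes. At this time oligodendrocyte markers were lower in 15 of 17 cases (median -0.076), endothelial markers in 6 of 8 (median -0.14, 4 of them at an unadjusted p under 0.05) and thalamus markers in 8 of 9 (median -0.22). With the mean of the oligodendrocyte markers as a covariate, 25 of the 29 genes were lower, with a median of -0.056, and with each array's SD over genes as a covariate 19 were lower, with a median of -0.017. Quantile normalisation gave a median of -0.037 and 26 lower, and all vehicle arrays as the control a median of -0.032 and 25 lower, with 5 of 8 fatty acid enzymes lower (median -0.016). Neuron markers, at a higher mean level than the 29, stood at 12.17 with celastrol and 12.20 with vehicle. Astrocyte markers stood at 11.46 and 11.48, and hypothalamic markers, the other way, at 10.88 and 10.82. The part of these cells, of the level of expression and of the array SD in the differences was not tested.

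At 4 days, 0 of the 29 genes passed the adjusted threshold, as did 0% of all genes, and none had an unadjusted p under 0.05, beside 7.29% of all genes. Of the sterol enzymes 9 of 11 were higher with celastrol, with a median log2 difference of 0.036, and the fatty acid enzymes split evenly, 4 higher and 4 lower. Over the 29 genes 11 were lower, beside 50.3% of all genes, and the median was 0.0087, against -0.00053 over all genes. It was -0.0034 after quantile normalisation, -0.0040 with the SD covariate and -0.029 with all vehicle arrays as the control. With that control 10 of the 17 sterol route enzymes were lower (median -0.046), where 12 were higher against the 4-day vehicle arrays (median 0.030). Hypothalamic markers were higher with celastrol in 12 of 13 cases (median 0.13), pituitary markers lower in 7 of 7 (-0.25) and thalamus markers lower in 8 of 9 (-0.22), and their part was not tested. For no member did the groups separate with all celastrol arrays below all vehicle arrays, as they did for 1.63% of all genes. For the mean of the 3 differences, 0 of the 29 genes passed, as did 0% of all genes, and 3 had an unadjusted p under 0.05 (Idi1, Ebp and Stard4, all lower), beside 13.5% of all genes. The 6-h differences of Idi1 and Stard4 enter this mean and depended on vehicle replicate 3, as given for each gene. The test of a celastrol effect that differed between times called 0 of the 29, beside 0.0588% of all genes, and 1 had an unadjusted p under 0.05 (Ebp), beside 13%. Ebp had the smallest adjusted p of the 29 in both tests, 0.176 and 0.230, with a mean difference of -0.12 ± 0.0326 (SE).

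**Figure D2:**
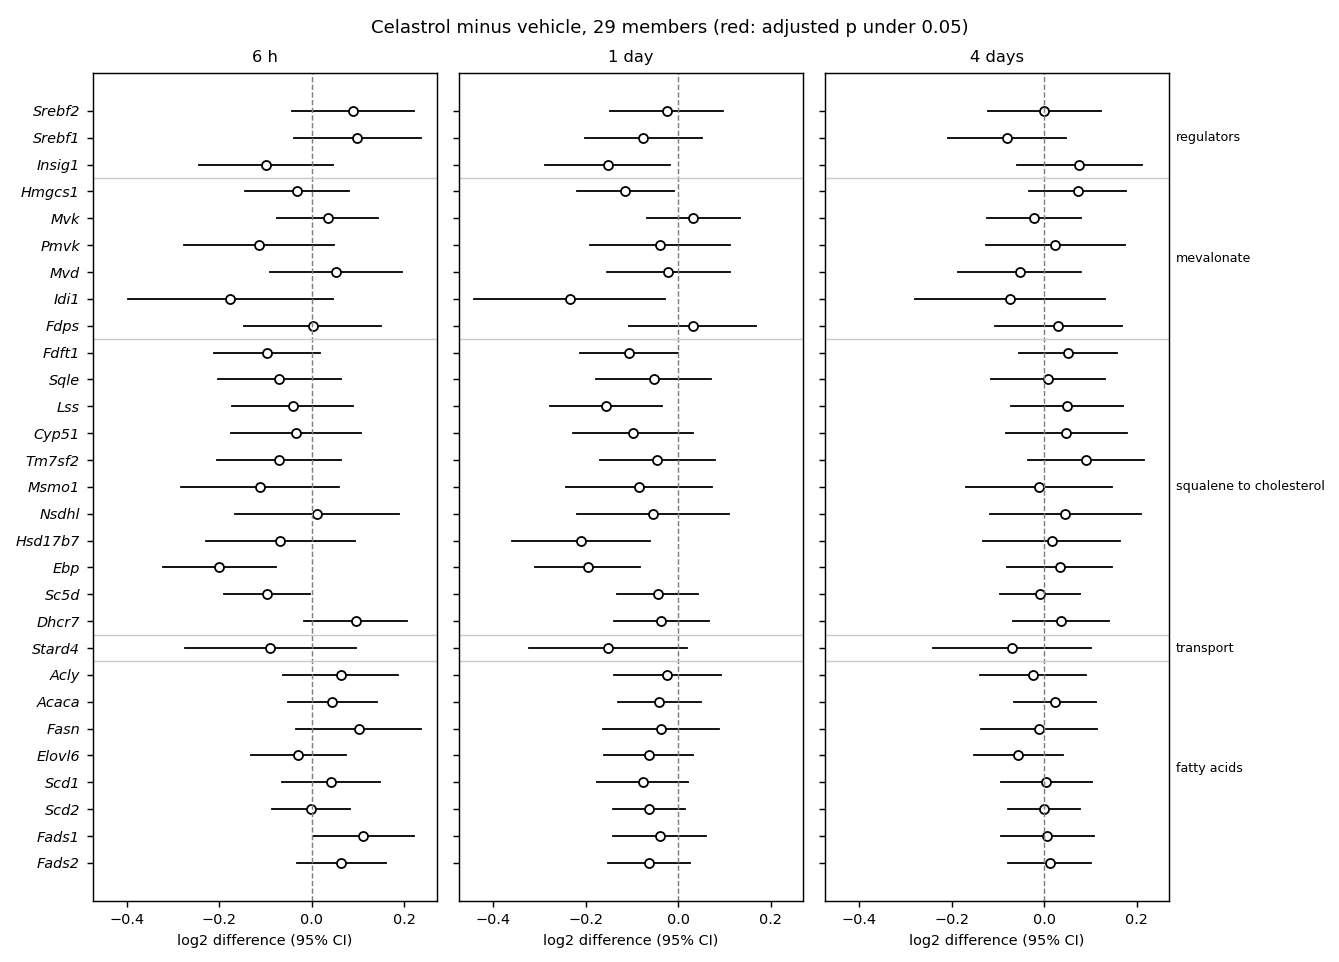
Points show the celastrol minus vehicle difference in log2 expression (x axis) of the 29 measured genes (rows, ordered by role) at 6 h, 1 day and 4 days, and bars their 95% confidence intervals from limma. No point is filled red, the mark of an adjusted p under 0.05; at 1 day 27 of the 29 points lie left of 0.

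Time was compared within each treatment next. In vehicle mice, limma's F test over the 3 times called 2 of the 29 genes, beside 8.83% of all genes, and 11 had an unadjusted p under 0.05, beside 28.5%. The 2 were Msmo1, the sterol C4-methyl oxidase (adjusted p = 0.0335), and Insig1 (adjusted p = 0.0367). Between 1 day and 4 days, Hmgcs1, Ebp and Insig1 fell, 3 of the 29, beside 3.22% of all genes that fell, and for 11 of the 29 every 4-day array lay below every 1-day array, beside 7.63% of all genes. Those 11 were Insig1, the sterol route enzymes Hmgcs1, Idi1, Fdft1, Cyp51 and Sc5d, and the fatty acid enzymes Acaca, Elovl6, Scd1, Scd2 and Fads1. Mvk was the 1 member whose 4-day arrays all lay above the 1-day ones, and the share of all genes on that side is not given here. Between 6 h and 4 days, Msmo1 and Insig1 fell, 2 of the 29, beside 2% of all genes that fell. In 8 of the 29 (Idi1, Fdft1, Sqle, Cyp51, Tm7sf2, Msmo1, Ebp and Sc5d, all of the sterol route) every 4-day array lay below every 6-h array, beside 4.93% of all genes. The median log2 difference of the 29 at 4 days was -0.070 against 1 day and -0.057 against 6 h, where the medians over all genes were 0.033 and 0.035. All genes are not matched to the 29 for level. Neuron markers in vehicle mice had a mean level of 12.17, 12.20 and 12.16 at 6 h, 1 day and 4 days. For hypothalamic markers it was 10.83, 10.82 and 10.84. The part of the level of expression was not tested. The groups of 1 day and 6 h gave 0 calls among the 29, and 0% of all genes, with Tm7sf2 lower and Acaca higher at an unadjusted p under 0.05, beside 10.7% of all genes. Acaca stood at 10.53 in vehicle replicate 3 of 6 h and at 10.63 to 10.72 in the others of that group. All 8 fatty acid enzymes were higher at 1 day than at 6 h (median 0.079). Without that array 6 of 8 were higher (median 0.017).

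These vehicle calls depended on single arrays and were lost with the array SD as a covariate. Without vehicle replicate 3 at 6 h the adjusted p of Msmo1 between 4 days and 6 h was 0.100 and that of Insig1 0.148, so that 0 of the 29 passed. The F test kept Insig1 (0.0449) and not Msmo1 (0.0535) without that array, and 0 of the 29 without replicate 1, 3 or 4 of the 4-day vehicle group. Between 4 days and 6 h, 0 of the 29 also passed without replicate 1 or 3 of the 4-day vehicle group. Msmo1 alone passed there without vehicle replicate 1 of 6 h, 2 or 3 of 1 day or 4 of 4 days, or celastrol replicate 1 of 1 day, where the adjusted p of Insig1 lay between 0.0505 and 0.0919. In the F test Insig1 had an adjusted p of 0.0521 without vehicle replicate 1 of 6 h and of 0.0572 to 0.0615 without replicate 2, 3 or 4 of the 1-day vehicle group. Between 4 days and 1 day, 0 of the 29 passed without replicate 2, 3 or 4 of the 1-day vehicle group or replicate 1 or 4 of the 4-day group, 1 (Ebp) passed without replicate 3 of the 4-day group, and 6 passed without replicate 3 of the 6-h group. Oligodendrocyte markers were lower at 4 days than at 1 day in 15 of 17 cases (median log2 difference -0.024) and pituitary markers higher in 7 of 7 (median 0.35). With the oligodendrocyte mean as a covariate 0 of the 29 passed between these times, and 1 with the pituitary mean, and the part of these cells was not tested. With each array's SD over genes as a covariate 0 of the 29 passed in any vehicle time comparison, and the median difference between 4 days and 1 day was 0.0039. The SD of the 4-day vehicle arrays was the lowest of the vehicle groups, and its part in these differences was not tested. Vehicle arrays at 1 day serve in both the celastrol and the time comparison, so the 2 sets of differences share them.

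In celastrol mice, 0 of the 29 genes passed the F test over time, beside 0.246% of all genes, and 3 had an unadjusted p under 0.05 (Tm7sf2, Dhcr7 and Elovl6), beside 16.4%. The pairs of times also gave 0 of 29, where 0.0321% of all genes passed between 1 day and 6 h, 0.353% between 4 days and 1 day, and 0.0749% between 4 days and 6 h. An unadjusted p under 0.05 was reached by 1 member (Tm7sf2) in the first of these pairs, 3 (Tm7sf2, Dhcr7 and Elovl6) in the second and 2 (Msmo1 and Elovl6) in the last, beside 10.1%, 15.1% and 14.4% of all genes. Msmo1 and Fads2 were the 2 of the 29 whose 4-day celastrol arrays all lay below the 6-h ones, as for 3.53% of all genes. Tm7sf2 and Dhcr7 were the 2 whose 4-day celastrol arrays all lay above the 1-day ones, as for 6.8% of all genes. The difference between 4 days and 6 h was -0.21 for Msmo1 in celastrol mice and -0.31 in vehicle mice, and the difference of these did not pass (adjusted p = 0.689). For Insig1 it was -0.066 in celastrol mice and -0.24 in vehicle mice (adjusted p of the difference = 0.392).

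**Figure D3:**
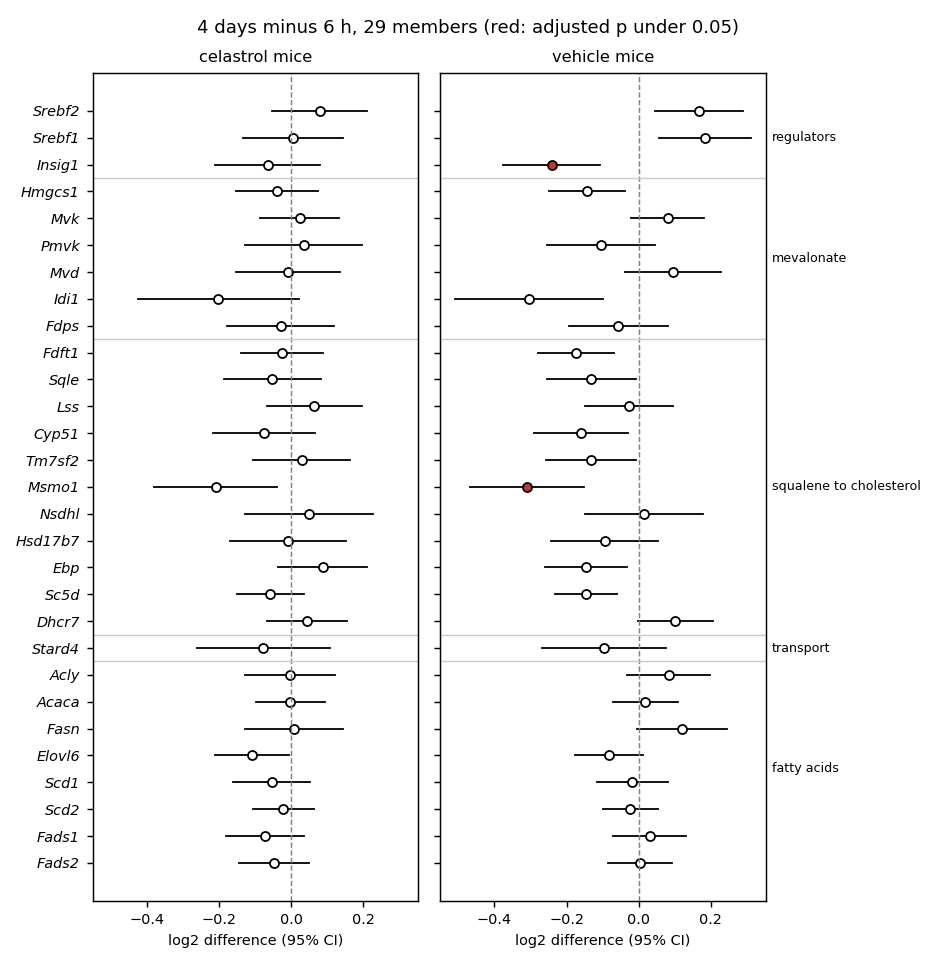
Points show the 4-day minus 6-h difference in log2 expression (x axis) of the 29 measured genes (rows, ordered by role) in celastrol mice (left) and vehicle mice (right), and bars their 95% confidence intervals from limma. The 2 red points, with an adjusted p under 0.05, are Insig1 (-0.24) and Msmo1 (-0.31) in vehicle mice.

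The upstream sequences of 5 genes that these comparisons turned on are shown so that letters known to matter for this pathway in mammals can be read: Msmo1, Insig1 and Hmgcs1, which were called over time in vehicle mice, Ebp, which was called there and had the smallest p with celastrol, and Hsd17b7, next to Ebp at 1 day. Each is the 250 bases before the transcription start, 5′ to 3′ along the gene's strand, from RefSeq on GRCm38.p6. Capitals mark CCAAT boxes, bound by the factor NF-Y, in either orientation (CCAAT or ATTGG), and the sterol regulatory element core CACNCCAC, likewise on either strand.
Msmo1 (chr8:64733579-64733828, minus strand): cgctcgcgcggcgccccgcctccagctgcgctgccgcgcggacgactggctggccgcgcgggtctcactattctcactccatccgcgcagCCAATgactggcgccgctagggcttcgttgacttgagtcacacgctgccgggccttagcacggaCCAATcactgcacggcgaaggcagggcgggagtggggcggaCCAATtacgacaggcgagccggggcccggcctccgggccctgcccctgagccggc
Insig1 (chr5:28071162-28071411, plus strand): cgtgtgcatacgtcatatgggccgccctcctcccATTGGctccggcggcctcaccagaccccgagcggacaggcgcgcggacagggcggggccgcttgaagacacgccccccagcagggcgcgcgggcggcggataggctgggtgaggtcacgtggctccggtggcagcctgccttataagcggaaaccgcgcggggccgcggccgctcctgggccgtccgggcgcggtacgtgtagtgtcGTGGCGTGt
Hmgcs1 (chr13:119690101-119690350, plus strand): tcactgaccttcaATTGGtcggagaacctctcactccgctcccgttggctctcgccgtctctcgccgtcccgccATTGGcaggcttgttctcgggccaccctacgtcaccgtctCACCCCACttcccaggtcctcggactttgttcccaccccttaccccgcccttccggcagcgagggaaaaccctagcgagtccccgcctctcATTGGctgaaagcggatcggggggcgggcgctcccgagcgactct
Ebp (chrX:8193513-8193762, minus strand): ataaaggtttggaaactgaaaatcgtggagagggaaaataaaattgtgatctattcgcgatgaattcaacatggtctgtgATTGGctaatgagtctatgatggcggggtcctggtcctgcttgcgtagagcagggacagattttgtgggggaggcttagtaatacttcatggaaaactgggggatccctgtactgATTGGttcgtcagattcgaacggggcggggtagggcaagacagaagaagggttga
Hsd17b7 (chr1:169969206-169969455, minus strand): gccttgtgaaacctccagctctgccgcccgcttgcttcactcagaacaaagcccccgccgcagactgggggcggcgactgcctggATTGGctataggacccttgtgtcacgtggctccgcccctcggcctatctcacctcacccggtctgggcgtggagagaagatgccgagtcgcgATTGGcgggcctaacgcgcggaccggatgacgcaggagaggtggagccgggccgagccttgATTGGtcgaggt

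Promoters were found for 22 of the 29 measured genes, with 27 starts between them. A CCAAT box on either strand lay in the 250 bases of 18 of the 22, counting a gene when any of its starts had one, while 33.8% of all 32851 RefSeq promoters of that length had one. It was present in 14 of 14 enzymes of the sterol route with a promoter and in 1 of 5 fatty acid enzymes, Fasn. Msmo1, Hmgcs1 and Hsd17b7 had 3 each. The CACNCCAC core was found in Hmgcs1 and Insig1, and in 5.29% of all promoters. The E-box CACGTG was found in Dhcr7, Hsd17b7, Insig1 and Sc5d, and in 6.02% of all promoters, and the GC box GGGCGG in 18 of the 22 and in 32.7% of all promoters. The marked CCAAT boxes and CACNCCAC cores do not overlap in the 5 sequences shown. A match is a description of letters and not a measured binding site.

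Among the regulators, Insig1 encodes the protein that retains the SREBP precursors in the endoplasmic reticulum and is itself an SREBP target. At 6 h, Insig1 measured 11.02, 10.99 and 11.13 with celastrol, against 11.21, 11.0, 11.32 and 11.06 with vehicle. After 1 day, Insig1 had values of 10.96, 10.88, 11.09 and 10.92 in celastrol mice, against 11.05, 11.12, 11.15 and 11.15 in vehicle mice. Insig1 values on the 4-day arrays were 11.01, 11.07, 10.86 and 10.99 with celastrol and 10.85, 11.02, 10.91 and 10.84 with vehicle. Vehicle arrays were higher than celastrol arrays at 1 day except for an overlap at one array of each group, and the 4-day vehicle arrays lay below all 1-day vehicle arrays. The celastrol difference was -0.15 ± 0.065 (SE) at 1 day (limma, adjusted p = 0.345). In vehicle mice Insig1 fell by 0.21 on the log2 scale between 1 day and 4 days (SE 0.065, adjusted p = 0.0373) and by 0.24 between 6 h and 4 days (adjusted p = 0.0415).

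Srebf2 encodes SREBP-2, the main activator of cholesterol synthesis genes. After 6 h, Srebf2 had values of 11.24, 11.32 and 11.32 in celastrol mice, against 11.25, 11.29, 10.96 and 11.32 in vehicle mice. Srebf2 values on the 1-day arrays were 11.30, 11.32, 11.24 and 11.27 with celastrol and 11.26, 11.33, 11.28 and 11.36 with vehicle. Srebf2 read 11.39, 11.39, 11.27 and 11.44 after celastrol and 11.33, 11.39, 11.37 and 11.39 after vehicle at 4 days. The celastrol and vehicle arrays overlapped at every time, and replicate 3 of the 6-h vehicle group was the lowest array of all. All 4-day vehicle arrays lay above all 6-h vehicle arrays, as did those of Srebf1 among the 29 and 6.6% of all genes, a difference of 0.17 ± 0.0589 (SE) that did not pass (adjusted p = 0.0986) and was 0.085 without replicate 3. Srebf1 encodes SREBP-1, which acts mainly on fatty acid genes. At 6 h, Srebf1 measured 9.94, 9.88 and 9.94 with celastrol, against 9.91, 9.82, 9.67 and 9.89 with vehicle. After 1 day, Srebf1 had values of 9.88, 9.78, 9.90 and 9.70 in celastrol mice, against 9.83, 9.99, 9.78 and 9.96 in vehicle mice. Srebf1 values on the 4-day arrays were 9.83, 9.91, 10.04 and 9.92 with celastrol and 9.94, 10.06, 10.07 and 9.95 with vehicle. Its celastrol and vehicle values overlapped at each time, with no call (adjusted p = 0.484, 0.649 and 0.85). The 4-day vehicle arrays were again above all 6-h ones, by 0.18 ± 0.0615 (SE, adjusted p = 0.0841), and by 0.13 without replicate 3.

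Of the mevalonate enzymes, Hmgcs1 makes HMG-CoA in the cytosol. After 6 h, Hmgcs1 had values of 11.18, 11.33 and 11.40 in celastrol mice, against 11.25, 11.39, 11.39 and 11.31 in vehicle mice. Hmgcs1 values on the 1-day arrays were 11.28, 11.18, 11.24 and 11.30 with celastrol and 11.30, 11.34, 11.37 and 11.45 with vehicle. Hmgcs1 read 11.24, 11.29, 11.21 and 11.31 after celastrol and 11.19, 11.26, 11.13 and 11.18 after vehicle at 4 days. At 1 day all 4 celastrol arrays lay below all 4 vehicle arrays, and in vehicle mice all 4-day arrays lay below all 1-day arrays. The celastrol difference at 1 day was -0.11 ± 0.0507 (SE, adjusted p = 0.362), and at 4 days 0.072, on the other side of 0 (adjusted p = 0.833). With all 12 vehicle arrays as the control the 4-day difference was -0.034. Hmgcs1 fell by 0.17 in vehicle mice between 1 day and 4 days (SE 0.0507, adjusted p = 0.0293).

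Idi1 interconverts the isoprenoid building blocks. At 6 h, Idi1 measured 9.35, 9.41 and 9.61 with celastrol, against 9.52, 9.46, 10.06 and 9.50 with vehicle. After 1 day, Idi1 had values of 9.39, 9.20, 9.42 and 9.19 in celastrol mice, against 9.41, 9.53, 9.62 and 9.59 in vehicle mice. Idi1 values on the 4-day arrays were 9.22, 9.42, 9.18 and 9.19 with celastrol and 9.25, 9.35, 9.39 and 9.32 with vehicle. At 6 h the Idi1 difference was -0.18 with and -0.034 without vehicle replicate 3. Celastrol and vehicle overlapped at each time, in part through replicate 1 of the 1-day vehicle group. Its celastrol difference of -0.23 ± 0.0993 (SE) at 1 day was the largest in size of the 29 genes at that time and did not pass (adjusted p = 0.342). A second Idi1 probe set gave -0.24 for the same comparison. That probe set gave -0.24 at 6 h and -0.16 at 4 days, where the one used gave -0.18 and -0.074. The other 4 enzymes of this stage, Mvk, Pmvk and Mvd, which phosphorylate and decarboxylate mevalonate, and Fdps, which makes farnesyl diphosphate, differed by between -0.053 and 0.052 from vehicle at the 3 times, except for Pmvk at 6 h at -0.11. Without vehicle replicate 3 Mvd was at 0.13 at 6 h. The lowest adjusted p among them in a celastrol comparison was 0.491.

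**Figure D4:**
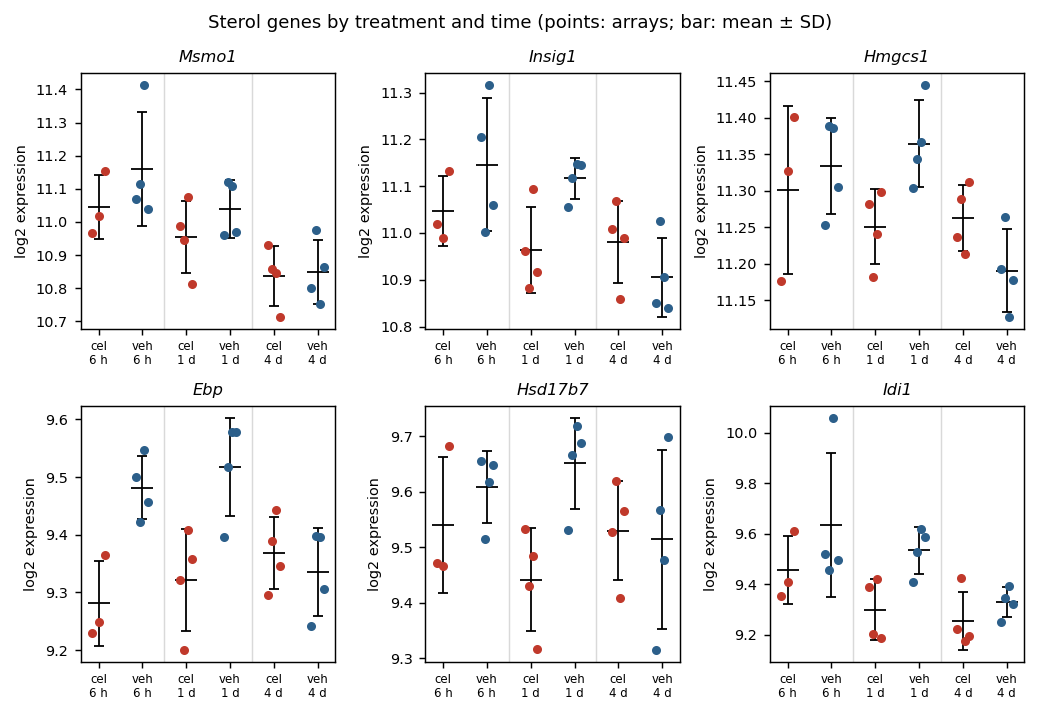
Points show log2 expression (y axis, own scale in each panel) in every array for Msmo1, Insig1, Hmgcs1, Ebp, Hsd17b7 and Idi1, with celastrol (red) left of vehicle (blue) at 6 h, 1 day and 4 days, and bars give the mean and SD. The single high vehicle array at 6 h in the Idi1 panel is replicate 3 at 10.06, and celastrol arrays lie wholly below vehicle arrays for Ebp at 6 h and for Hmgcs1 at 1 day.

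Among the enzymes from squalene to cholesterol, Ebp isomerises the sterol ring double bond. After 6 h, Ebp had values of 9.23, 9.25 and 9.36 in celastrol mice, against 9.50, 9.42, 9.55 and 9.46 in vehicle mice. Ebp values on the 1-day arrays were 9.32, 9.20, 9.41 and 9.36 with celastrol and 9.40, 9.52, 9.58 and 9.58 with vehicle. Ebp read 9.30, 9.39, 9.44 and 9.35 after celastrol and 9.24, 9.40, 9.40 and 9.31 after vehicle at 4 days. All 3 celastrol arrays lay below all 4 vehicle arrays at 6 h, the only member separated in this way at that time, beside 4.29% of all genes; at 1 day one celastrol array reached the lowest vehicle array, and at 4 days the groups overlapped. The differences were -0.20 ± 0.0593 (SE) at 6 h, -0.20 ± 0.0549 at 1 day and 0.033 ± 0.0549 at 4 days (adjusted p = 0.181, 0.191 and 0.952 in limma). Without vehicle replicate 3 the 6-h difference was -0.18, and with arrays weighted by their fit the 1-day difference passed (adjusted p = 0.0311). The difference between the 4-day and 1-day celastrol effects was 0.23 and did not pass (adjusted p = 0.195). In vehicle mice Ebp fell by 0.18 between 1 day and 4 days (adjusted p = 0.0344).

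Hsd17b7 reduces the sterol 3-ketone during demethylation. At 6 h, Hsd17b7 measured 9.47, 9.47 and 9.68 with celastrol, against 9.65, 9.52, 9.62 and 9.65 with vehicle. After 1 day, Hsd17b7 had values of 9.53, 9.43, 9.48 and 9.32 in celastrol mice, against 9.53, 9.67, 9.72 and 9.69 in vehicle mice. Hsd17b7 values on the 4-day arrays were 9.53, 9.62, 9.41 and 9.56 with celastrol and 9.31, 9.57, 9.48 and 9.70 with vehicle. At 1 day 3 celastrol arrays lay below all vehicle arrays and one lay level with the lowest vehicle array. The difference was -0.21 ± 0.0719 (SE) at 1 day (adjusted p = 0.249), -0.069 at 6 h and 0.016 at 4 days. Lss closes the ring of lanosterol. After 6 h, Lss had values of 9.52, 9.58 and 9.53 in celastrol mice, against 9.68, 9.69, 9.53 and 9.44 in vehicle mice. Lss values on the 1-day arrays were 9.55, 9.48, 9.49 and 9.46 with celastrol and 9.58, 9.67, 9.66 and 9.69 with vehicle. Lss read 9.62, 9.75, 9.44 and 9.62 after celastrol and 9.61, 9.53, 9.55 and 9.54 after vehicle at 4 days. All celastrol arrays at 1 day lay below all vehicle arrays, a difference of -0.16 ± 0.0585 (SE, adjusted p = 0.282), while the groups overlapped at 6 h and 4 days.

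Msmo1 removes the C4 methyl groups of sterol intermediates. At 6 h, Msmo1 measured 10.97, 11.02 and 11.15 with celastrol, against 11.07, 11.11, 11.41 and 11.04 with vehicle. After 1 day, Msmo1 had values of 10.99, 10.94, 11.07 and 10.81 in celastrol mice, against 10.96, 11.12, 11.11 and 10.97 in vehicle mice. Msmo1 values on the 4-day arrays were 10.93, 10.86, 10.85 and 10.71 with celastrol and 10.80, 10.98, 10.75 and 10.86 with vehicle. The celastrol and vehicle arrays overlapped at every time, and the 4-day vehicle arrays lay below all 6-h vehicle arrays. Msmo1 fell by 0.31 in vehicle mice between 6 h and 4 days (SE 0.0762, adjusted p = 0.0277), and by 0.23 without replicate 3. Its celastrol difference at 6 h was -0.11, and -0.028 without that array. Sc5d introduces the C5 double bond. After 6 h, Sc5d had values of 10.53, 10.59 and 10.64 in celastrol mice, against 10.64, 10.67, 10.73 and 10.69 in vehicle mice. Sc5d values on the 1-day arrays were 10.59, 10.58, 10.60 and 10.60 with celastrol and 10.58, 10.61, 10.63 and 10.74 with vehicle. Sc5d read 10.52, 10.62, 10.50 and 10.47 after celastrol and 10.53, 10.54, 10.55 and 10.53 after vehicle at 4 days. At 6 h the groups met at one array, and the difference was -0.10 ± 0.0452 (SE, adjusted p = 0.322), or -0.083 without vehicle replicate 3. The 4-day vehicle arrays were below all 6-h ones (difference -0.15, adjusted p = 0.051).

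Dhcr7 catalyses the last step to cholesterol. At 6 h, Dhcr7 measured 9.93, 9.95 and 10.08 with celastrol, against 9.86, 9.90, 9.87 and 9.93 with vehicle. After 1 day, Dhcr7 had values of 9.96, 9.77, 9.90 and 9.88 in celastrol mice, against 9.89, 9.95, 9.89 and 9.93 in vehicle mice. Dhcr7 values on the 4-day arrays were 10.03, 10.04, 9.98 and 10.06 with celastrol and 9.86, 10.06, 10.06 and 9.99 with vehicle. The groups overlapped at each time, with celastrol differences of 0.095, -0.036 and 0.036 in time order and no call. Within celastrol mice all 4-day arrays lay above all 1-day arrays, by 0.15 ± 0.0497 (SE, adjusted p = 0.155). Tm7sf2 reduces the C14 double bond. After 6 h, Tm7sf2 had values of 9.14, 9.07 and 9.26 in celastrol mice, against 9.14, 9.19, 9.19 and 9.38 in vehicle mice. Tm7sf2 values on the 1-day arrays were 9.10, 8.87, 8.98 and 9.05 with celastrol and 8.93, 9.13, 9.05 and 9.07 with vehicle. Tm7sf2 read 9.16, 9.23, 9.14 and 9.21 after celastrol and 9.0, 9.14, 9.14 and 9.10 after vehicle at 4 days. Overlap was present at each time, and at 4 days the difference of 0.09 ± 0.0601 (SE) had the smallest p of the 29 genes at that time (adjusted p = 0.815). Its 4-day celastrol arrays also lay above all 1-day ones (difference 0.18, adjusted p = 0.154).

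The other 4 sterol enzymes were Fdft1, which makes squalene, Sqle, which oxidises it, Cyp51, which removes the C14 methyl group of lanosterol, and Nsdhl, which acts with Msmo1. Their celastrol differences ran from -0.11 to 0.051 over the 3 times, with the lowest adjusted p at 0.399 for Fdft1 at 1 day (-0.11). A second Fdft1 probe set gave -0.046 at 1 day and -0.0070 at 4 days, where the one used gave 0.051. Fdft1 in 4-day vehicle arrays stood below all 6-h arrays (difference -0.17 ± 0.051 SE, adjusted p = 0.0547). Stard4, a cytosolic sterol carrier, stood at 8.36, 8.50, 8.48 and 8.43 with celastrol and at 8.53, 8.61, 8.51 and 8.72 with vehicle at 1 day. All celastrol arrays were lower, and the difference was -0.15 ± 0.0825 (SE, adjusted p = 0.469).

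Among the fatty acid enzymes, Scd1 and Scd2 introduce the first double bond into stearate, and Scd2 is the form typical of brain. After 6 h, Scd1 had values of 12.85, 12.93 and 12.98 in celastrol mice, against 12.94, 12.94, 12.71 and 12.92 in vehicle mice. Scd1 values on the 1-day arrays were 12.91, 12.87, 12.87 and 12.87 with celastrol and 13.01, 12.91, 12.93 and 12.98 with vehicle. Scd1 read 12.87, 12.86, 12.90 and 12.82 after celastrol and 12.90, 12.86, 12.83 and 12.85 after vehicle at 4 days. The celastrol arrays at 1 day all lay below the vehicle arrays (difference -0.077 ± 0.0475 SE, adjusted p = 0.521), and at the other times the groups overlapped. At 6 h, Scd2 measured 13.90, 13.86 and 13.85 with celastrol, against 13.91, 13.91, 13.78 and 13.90 with vehicle. After 1 day, Scd2 had values of 13.86, 13.86, 13.85 and 13.83 in celastrol mice, against 13.92, 13.91, 13.90 and 13.93 in vehicle mice. Scd2 values on the 4-day arrays were 13.86, 13.85, 13.89 and 13.80 with celastrol and 13.88, 13.81, 13.85 and 13.87 with vehicle. Scd2 was likewise lower in all celastrol arrays at 1 day (difference -0.063 ± 0.0373 SE, adjusted p = 0.501). The 95% interval of the celastrol difference was -0.14 to 0.014 at 1 day and -0.078 to 0.076 at 4 days for Scd2. At 6 h the difference of Scd1 was 0.041 with and -0.015 without vehicle replicate 3.

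Fads1, the delta-5 desaturase of polyunsaturated fatty acids, had the smallest p of the fatty acid enzymes at 6 h. After 6 h, Fads1 had values of 12.52, 12.59 and 12.63 in celastrol mice, against 12.53, 12.52, 12.31 and 12.52 in vehicle mice. Fads1 values on the 1-day arrays were 12.57, 12.47, 12.52 and 12.56 with celastrol and 12.54, 12.55, 12.56 and 12.63 with vehicle. Fads1 read 12.56, 12.51, 12.51 and 12.45 after celastrol and 12.53, 12.44, 12.53 and 12.50 after vehicle at 4 days. At 6 h only the lowest celastrol array reached into the vehicle values. The difference was 0.11 ± 0.0526 (SE, adjusted p = 0.334), and 0.057 without vehicle replicate 3. Elovl6 lengthens saturated and monounsaturated fatty acids. At 6 h, Elovl6 measured 11.66, 11.73 and 11.78 with celastrol, against 11.73, 11.75, 11.69 and 11.85 with vehicle. After 1 day, Elovl6 had values of 11.78, 11.68, 11.76 and 11.68 in celastrol mice, against 11.76, 11.81, 11.80 and 11.79 in vehicle mice. Elovl6 values on the 4-day arrays were 11.57, 11.69, 11.55 and 11.65 with celastrol and 11.74, 11.60, 11.68 and 11.67 with vehicle. Its groups overlapped at each time, with a 4-day difference of -0.056 ± 0.0461 (SE, adjusted p = 0.872). Acly, which supplies cytosolic acetyl-CoA, Acaca, which makes malonyl-CoA, Fasn, fatty acid synthase, and Fads2, the delta-6 desaturase, differed from vehicle by between -0.063 and 0.10. The highest of these, Fasn at 6 h, was 0.006 without vehicle replicate 3. A second Acaca probe set gave -0.12 at 6 h, where the one used gave 0.044 with and 0.0069 without vehicle replicate 3.

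Other genes of the pathway were read from 3 lists of synthesis, sterol sensing and uptake, and oxysterol and LXR genes. Of these, 20 of 24, 13 of 18 and 17 of 18 were measured, and 0 passed in any celastrol against vehicle comparison. Among the synthesis genes 15 of 20 were lower at 1 day, with a median log2 difference of -0.045, and 15 of 20 were higher at 4 days, with a median of 0.017. Elovl7, an elongase of very long fatty acids, was the lowest at 1 day, with 9.15 ± 0.0441 in celastrol mice and 9.39 ± 0.124 in vehicle mice (SD, n = 4 each; log2 difference -0.24, adjusted p = 0.191), and Acsl6, an acyl-CoA ligase, followed in rank of p (-0.086). At 6 h the 2 of smallest p were the elongase Elovl4 (-0.11) and the reductase Hsd17b12 (-0.16, or -0.089 without vehicle replicate 3), and at 4 days the dehydratase Hacd3 (0.064) and the citrate carrier Slc25a1 (0.056).

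In the sterol sensing list Rnf139, a ubiquitin ligase of the endoplasmic reticulum, differed by -0.25 ± 0.076 (SE) at 6 h (adjusted p = 0.181), followed by the lipoprotein receptor Scarb1 (0.13). Without vehicle replicate 3 these were -0.17 and 0.064. The lysosomal cholesterol exporters Npc2 (0.086) and Npc1 (-0.074) led at 1 day, and Scarb1 (0.07) and the phosphatidate phosphatase Lpin1 (0.048) at 4 days. Among oxysterol genes Cyp7b1, the oxysterol 7-alpha hydroxylase, differed by -0.18 at 6 h (-0.12 without vehicle replicate 3) and -0.22 at 1 day. Ch25h, which makes 25-hydroxycholesterol, a sterol that restrains SREBP processing, averaged 6.49 ± 0.178, 7.49 ± 0.374 and 7.0 ± 0.226 in celastrol mice at 6 h (n = 3), 1 day and 4 days (SD, n = 4 each). Within celastrol mice it rose by 0.99 ± 0.156 (SE) between 6 h and 1 day (limma, adjusted p = 0.0348), and the adjusted p reached 0.112 when single arrays were left out, with the call lost without any of the 3 celastrol arrays of 6 h, celastrol replicate 2 or 4 of 1 day, or vehicle replicate 2 of 1 day. With each array's SD as a covariate the adjusted p was 0.153. The F test over the celastrol times also called Ch25h (adjusted p = 0.0216, and 0.0292 with the SD covariate), and no longer without celastrol replicate 2 or 4 of 1 day. Its vehicle means were 6.77 ± 0.174, 6.70 ± 0.141 and 6.82 ± 0.188 (SD, n = 4 each). All group means of Ch25h lie below the median log2 value of every array, so its signal was low. The celastrol difference of Ch25h was -0.28 at 6 h, 0.79 ± 0.144 (SE) at 1 day and 0.18 at 4 days (limma, adjusted p = 0.397, 0.0595 and 0.859). The difference between its 1-day and 6-h celastrol effects, 1.07, did not pass (adjusted p = 0.368). At 4 days Mlxipl, the glucose-responsive factor ChREBP, differed by -0.10 and the LXR partner Rxrb by 0.067, neither of which passed.

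Over time in vehicle mice, 3 of the 20 synthesis genes passed the F test, beside the 8.83% of all genes given above: Hacd3 (adjusted p = 0.0171), the sterol scaffold gene Erg28 (0.0315) and Hsd17b12 (0.0427). Hacd3 and the elongase Elovl5 fell between 1 day and 4 days, with differences of -0.16 and -0.16 (adjusted p = 0.00791 and 0.0376), and Hsd17b12 fell between 6 h and 4 days (-0.28, adjusted p = 0.0372). Mlxipl rose between 1 day and 4 days in vehicle mice, by 0.24 (adjusted p = 0.00748), to 8.24 ± 0.11 at 4 days, against 8.0 ± 0.0734 at 1 day (SD, n = 4 each). Mlxipl also passed the F test (adjusted p = 0.0196), as the 1 of 17 oxysterol and LXR genes. The calls of Hacd3 and Mlxipl between 4 days and 1 day held when each of the 23 arrays was left out in turn (highest adjusted p = 0.0254 and 0.0311), but the F test lost Hacd3 without vehicle replicate 2 of 4 days (adjusted p = 0.0584) and Mlxipl without vehicle replicate 2 or 4 of 1 day or 2 or 3 of 4 days (up to 0.0708). Of the 23 left-out arrays, 5 ended the call of Elovl5 and 6 each those of Erg28 (F test) and of Hsd17b12 between 4 days and 6 h, with adjusted p-values up to 0.114, 0.0642 and 0.135, and 11 ended the F call of Hsd17b12 (up to 0.0943). These were arrays of the vehicle groups, and for that last call also celastrol replicates 1 and 4 of 1 day. With each array's SD over genes as a covariate none of these vehicle calls passed (adjusted p between 0.150 and 0.791). No gene of the sterol sensing list passed over time in vehicle mice.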

How the data were processed

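Hypothalamic RNA of 23 db/db samples was measured on Affymetrix arrays, 1 array per sample, and groups were taken from the labels. The deposited values are log2 expression for each probe set. Per the submitters' processing notes, the authors used RMA, a method of background correction, quantile normalisation and summary over probes. The software and version, any filter and the set of arrays normalised together were not given in the sources used here. Among 23492 probe sets, 20228 name 1 gene (20182 by its current symbol and 46 by an older one), 1399 several and 1865 none in the platform annotation. The probe set of highest mean stood for each of the 809 genes with more than 1, which left 18704 genes with no filter on level.

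Group means of all 6 groups were fitted with limma 3.58.1 in R 4.3.3 (17 residual and 5.42 prior degrees of freedom), and p-values were adjusted by Benjamini-Hochberg over all genes at 0.05. The fit was tested on simulated data, with noise drawn independently for each gene and array. Of genes shifted by 0.25 log2 units, 44.8% were recovered at 6 h and 53.7% at 1 day and at 4 days. The test of an effect that differed between times recovered 13.4% of them. For a shift of 0.5 the shares were 94%, 97%, 98.5% and 89.6%, in the same order. Arrays have no read depth, and their number limits the precision. The 30 genes and the lists were chosen with earlier results of these data known. Values in every array are given for the 3 regulators, Scd1, Scd2 and the 4 members of smallest p in each celastrol comparison and each time F test. From the other pathway lists the called genes are named, or else the 2 of smallest p per list and comparison. A member outside these rules is named where a count is small or it is singled out, after its values were seen. Alternatives were the variance model, a filter on level, further normalisation or centring, a replicate block, array weights, the samples fitted, the choice of probe set, 3 covariates, a pooled control and leaving out each array. No 2 arrays of a group held identical values, and no scan date or batch was given.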

Additional observations from a re-analysis of the deposited data

Results flagged for a closer look

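In each group of 4 arrays, the highest and the lowest value of each of the 29 genes was set against the others by Dixon's test at its 95% critical value. Of 145 sets of 4 values, 10 held a value that stood apart (6.9%), where chance gives about 5% for independent sets. The 29 genes were read on the same arrays, so the sets are not independent and the count is a description only. Replicate 3 of the 6-h vehicle group held 6 of the 10. It was high for Idi1, isopentenyl diphosphate isomerase, at 10.06, and low for 5 fatty acid enzymes, with Fasn at 11.45, Scd1 at 12.71, Scd2 at 13.78, Fads1 at 12.31 and Fads2 at 12.55 on the log2 scale. Fdps, farnesyl diphosphate synthase, was low in vehicle replicate 1 of 1 day, at 10.42, and in vehicle replicate 2 of 4 days, at 10.52. Among the 1-day celastrol arrays, Scd1 was high in replicate 1, at 12.91, and Fads2 low in replicate 4, at 12.63. The cause of these values was not tested.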

How the results depend on the processing

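In the 3 comparisons of celastrol with vehicle the 29 genes gave 0 calls under 35 settings, except that arrays weighted by their fit called 1 (Ebp) at 1 day. The mean effect and its difference between times gave 0 under 33 settings and the celastrol time tests 0 under 34. Of the median celastrol differences, that at 1 day stayed below 0 and was -0.017 with each array's SD as a covariate. At 6 h the median was 0.032 with that covariate, against -0.030, and lay between -0.036 and 0.023 when single arrays were left out. At 4 days it was -0.029 with all vehicle arrays as control, against 0.0087, and single values turned with it: Hmgcs1 to -0.034 and Srebf1 to 0.019. The vehicle time calls moved most. The F test called 2 of the 29, but 5 with a robust trend in the variance, 4 when the lowest tercile of genes was left out, 0 after quantile normalisation, 7 after centring, 4 with array weights, 0 with only the vehicle groups fitted, 0 with the SD covariate and 0 to 3 without single arrays. Between 4 days and 1 day the count of 3 became 1 after quantile normalisation, 6 after centring, 7 with array weights, 0 with the oligodendrocyte covariate, 1 with the pituitary covariate, 0 with the SD covariate and 0 to 6 without single arrays. Between 4 days and 6 h the count of 2 became 4 with the robust trend, 4 without the lowest tercile, 1 after quantile normalisation, 4 after centring, 1 with array weights, 0 with only those groups, 4 with the pituitary covariate, 0 with the SD covariate and 0 to 3 without single arrays. With the SD covariate the medians were 0.0039 and -0.014, against -0.070 and -0.057. The cause was not tested. Of 862 alternatives for 25 results on single genes, 786 kept their direction and side of the threshold, 62 lost a call, 12 gained one and 2 turned.

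Over all genes the vehicle F test called 1651 (2 with the SD covariate to 2491 with array weights), the 4-day against 1-day vehicle comparison 2203 (0 to 3627), the 4-day against 6-h one 732 (0 to 1118), and celastrol at 1 day 3 (0 to 406 with array weights). The other counts were 46 for the celastrol F test (0 to 96), 66 for celastrol at 4 days against 1 day (1 to 89), 14 at 4 days against 6 h (0 to 39), 6 at 1 day against 6 h (0 to 20) and 11 for the difference of effects between times (0 to 12). Celastrol at 4 days gave 0 (0 to 39), at 6 h 0 (0 to 1) and its mean effect 0 (0 to 1), and vehicle at 1 day against 6 h 0 (0 to 4). These ranges do not include leaving out single arrays, which gave wider ones for some counts. The celastrol F test then called 0 to 200, celastrol at 4 days against 1 day 3 to 200 and against 6 h 0 to 78. The difference of effects between times called 0 to 118, the mean effect 0 to 9 and celastrol at 6 h 0 to 2. Vehicle at 1 day against 6 h called 0 to 10, and at 4 days against 6 h 179 to 1208.

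Same-numbered arrays deviated together little (correlations between -0.083 and 0.188), and the highest, 0.124 and 0.188, were those of replicates 2 and 3 at 6 h. Groups of 3 or 4 arrays cannot exclude a pairing. The labels state none, so the numbers were not used to pair the samples. With the replicate number as a block, the vehicle F test called 3 of the 29 in place of 2 and 1450 genes in all, celastrol at 1 day called 0 of the 29 and 1 gene in all, and celastrol at 4 days against 6 h called 0 genes in all. The number of arrays limits what can be seen, and the 95% interval of a celastrol difference of the median gene extended by 0.146 log2 units each way at 6 h and by 0.136 later.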
